A study of Mus musculus with 6 samples.

Results

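The enzymes that turn arachidonic acid into leukotrienes and prostaglandins were followed in cultured mouse thymic tuft cells. The set was 10 genes chosen by function, and 8 of them were among the 9088 genes listed in the count table: Pla2g4a, Alox5, Alox5ap, Ltc4s, Lta4h, Ptgs1, Ptgs2 and Ptges. Hpgds and Tbxas1, which encode the haematopoietic prostaglandin D synthase and thromboxane synthase, were not among the listed genes and are not analysed here. Tuft cells had been sorted from thymi of male wild-type (WT) mice, spun into aggregates, cultured for 12 h and, after a change of medium, for another 24 h. The treated group then received recombinant interleukin 13 (rIL-13) at 20 ng/mL for 24 h and the control group received vehicle (PBS) for the same time, with 3 bulk libraries in each group. In MARS-seq, each polyadenylated molecule captured at its 3' end is counted once by its unique molecular identifier (UMI). The labels do not say whether replicates were separate cultures or animals, so each p-value reflects how far these libraries differed, and that difference could be technical.

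Tuft cells are chemosensory epithelial cells, and a taste-like calcium cascade in them is coupled to the release of lipid mediators. Cytosolic phospholipase A2 frees arachidonic acid from membranes when calcium rises. 5-lipoxygenase, helped by its activating protein, then makes leukotriene A4, which leukotriene C4 synthase joins to glutathione to start the cysteinyl leukotrienes and leukotriene A4 hydrolase turns into leukotriene B4. The cyclooxygenases instead make prostaglandin H2, which separate terminal synthases convert to prostaglandin E2, prostaglandin D2, prostacyclin or thromboxane. In the mouse gut, cysteinyl leukotrienes from tuft cells act on type 2 innate lymphoid cells, which themselves secrete interleukin 13.

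Treated libraries were shallower, with 248028 to 295614 UMIs in listed genes, against 394513 to 489919 for vehicle. The tuft identity of the libraries was checked on 45 marker symbols outside the enzyme set, of which 39 were listed. The 45 also hold newer symbols of Fyb and Lrmp (Fyb1 and Irag2), which were not listed. The 39 summed to 8743 to 10839 CPM (CPM is the UMI count scaled to library size, here with TMM factors) with vehicle. They summed to 9231, 15206 and 16963 CPM in rIL-13 replicates 1, 2 and 3. The cation channel gene Trpm5 was at 456 CPM or more in every library. Not all markers were as high, since Pou2f3 was at 14.0 to 43.4 CPM and 28 of the 39 had enough counts to be tested. Vehicle replicate 3 and rIL-13 replicate 1 were the most similar pair of libraries (Spearman correlation 0.885 across genes), although they belong to different groups. Of 5135 genes that passed a filter on low counts, 3 differed between the groups at an adjusted p under 0.05 (edgeR, all tested genes), or 0.0584%, of which 2 were higher (0.0389%) and 1 lower (0.0195%) with rIL-13.

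None of the 7 enzyme genes tested passed that threshold, and Ptges was too sparse for the filter. The leukotriene genes Alox5 and Ltc4s were higher in all 3 rIL-13 libraries than in any vehicle library, by 0.59 and 0.49 on the log2 scale. Alox5ap was also higher on average, while the cyclooxygenase genes Ptgs1 and Ptgs2 and the phospholipase gene Pla2g4a were lower on average with overlapping groups, and Lta4h and Ptges lay close to no difference. Groups that did not overlap, in either direction, were found for 11.7% of all tested genes, and for 5.76% with all rIL-13 libraries above. At an unadjusted p under 0.05 edgeR gave 2 enzyme genes, both higher, against 5.49% of all tested genes in either direction, 3.08% higher and 2.41% lower. The median log2 fold change was -0.06 over the 7 tested enzymes and within 0.01 of 0 over all tested genes. In bulk RNA, a larger share of cells with an enzyme and more transcript per cell cannot be told apart.

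Promoters of 4 members are shown, those of both leukotriene genes whose groups did not overlap and those of both cyclooxygenases, whose averages lay the other way. Each runs from 250 bases before to 50 bases after the annotated start, 5′ to 3′ on the gene's strand (RefSeq, GRCm38.p6). They lie at chr6:116461129-116461428 (minus strand), chr11:50238483-50238782 (minus), chr2:36230176-36230475 (plus) and chr1:150099781-150100080 (plus). Capitals mark matches to 5 motifs searched on both strands.
Alox5: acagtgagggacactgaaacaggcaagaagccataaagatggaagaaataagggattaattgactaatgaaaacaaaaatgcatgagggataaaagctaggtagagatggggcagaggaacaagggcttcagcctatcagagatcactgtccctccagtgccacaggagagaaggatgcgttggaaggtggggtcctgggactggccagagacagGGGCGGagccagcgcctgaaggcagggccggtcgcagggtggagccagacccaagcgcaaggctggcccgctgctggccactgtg
Ltc4s: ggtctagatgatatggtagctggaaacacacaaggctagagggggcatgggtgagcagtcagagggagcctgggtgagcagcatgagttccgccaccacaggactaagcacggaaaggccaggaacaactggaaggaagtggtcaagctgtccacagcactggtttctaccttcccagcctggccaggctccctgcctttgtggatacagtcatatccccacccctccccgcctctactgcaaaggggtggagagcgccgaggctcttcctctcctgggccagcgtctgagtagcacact
Ptgs1: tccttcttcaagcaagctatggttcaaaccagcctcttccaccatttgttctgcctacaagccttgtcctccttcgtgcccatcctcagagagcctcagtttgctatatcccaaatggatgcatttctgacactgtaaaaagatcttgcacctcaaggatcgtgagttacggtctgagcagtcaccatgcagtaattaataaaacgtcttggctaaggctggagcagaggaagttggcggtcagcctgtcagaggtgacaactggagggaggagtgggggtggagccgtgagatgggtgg
Ptgs2: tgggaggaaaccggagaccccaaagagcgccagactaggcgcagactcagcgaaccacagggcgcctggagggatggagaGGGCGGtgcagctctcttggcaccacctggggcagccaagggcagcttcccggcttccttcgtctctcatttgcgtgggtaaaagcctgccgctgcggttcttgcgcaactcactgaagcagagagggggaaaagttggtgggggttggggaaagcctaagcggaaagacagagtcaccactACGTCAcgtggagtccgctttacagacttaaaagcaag
The GC box GGGCGG matched once in Alox5, at -35 from the start, and once in Ptgs2, at -170, and 35.7% of 32841 promoter windows hold it. The core of the cyclic AMP response element, TGACGT, matched once in Ptgs2, 12 bases past the start on the reverse strand, where it reads ACGTCA, and 7.52% of windows hold it. No match to the spacing preferred by STAT6, TTC and GAA with 4 bases between them (6.95% of windows), to the octamer ATGCAAAT of POU factors (1.74%) or to TATAAA (13.6%) was found in these 4 windows. Among the 7 listed members with a window, the STAT6 spacing and 2 GC boxes matched in Ptges and TATAAA in 1 of the windows of Pla2g4a. The motifs do not overlap one another in these windows, and a match is a run of letters and not a measured binding site.

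Pla2g4a encodes the cytosolic phospholipase A2 that feeds both arms (chromosome 1, 149829618 to 149961290, minus strand; here and below GENCODE M21 on mm10, and all 8 genes are protein-coding). It was sparse, with UMI counts of 13, 27 and 25 in vehicle replicates 1, 2 and 3, against 6, 7 and 14 in the treated replicates. Its level was 36.5, 62.7 and 54.3 CPM for vehicle, against 22.0, 25.1 and 59.1 CPM for rIL-13. Both low values came from rIL-13 replicates 1 and 2, and rIL-13 replicate 3 lay inside the vehicle range. The log2 fold change was -0.56 ± 0.45 (SE, n = 3 per group; edgeR adjusted p = 0.924), with a 95% interval from -1.51 to 0.38. It was -1.11 with rIL-13 replicate 3 left out and -0.33 with rIL-13 replicate 1 left out, neither of which passed.

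Alox5 encodes 5-lipoxygenase, the enzyme that commits arachidonic acid to leukotrienes (chromosome 6, 116410077 to 116461178, minus strand). In UMIs, the vehicle libraries held 94, 122 and 117 and the treated ones 85, 135 and 96. Scaled to library size these were 264, 283 and 254 CPM for vehicle, against 312, 485 and 405 CPM for rIL-13. The vehicle libraries were close together, and every rIL-13 library lay above them, rIL-13 replicate 1 by the least. The vehicle libraries differed by no more than counting would give, with a coefficient of variation of 5.55% against 9.49% from counting alone, whereas the rIL-13 libraries spread by 21.5% against 9.74%. The log2 fold change was 0.59 ± 0.23 (SE, n = 3 per group), with a 95% interval from 0.10 to 1.07. Its edgeR p was 0.0201 before and 0.804 after adjustment over all tested genes, and 123rd in order among 5135. The authors' deposited table, from the same libraries, gives Alox5 a log2 fold change of 0.58, with p = 0.0332 before and 0.9999 after adjustment.

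Alox5ap encodes the 5-lipoxygenase activating protein, a membrane protein that presents arachidonic acid to the enzyme (chromosome 5, 149264767 to 149288153, plus strand). It stood at 328, 244 and 167 CPM in vehicle replicates 1, 2 and 3 and at 213, 406 and 389 CPM in the rIL-13 replicates, from 58 to 117 UMIs per library. The groups overlapped, since rIL-13 replicate 1 lay below vehicle replicates 1 and 2. Unlike Alox5, it varied within both groups by about 3 times the counting error, with coefficients of variation of 32.7% for vehicle and 31.8% for rIL-13. The log2 fold change was 0.45 ± 0.29 (SE, n = 3 per group; edgeR adjusted p = 0.873), with an interval from -0.16 to 1.06. It was 0.70 with vehicle replicate 1 left out, 0.68 with rIL-13 replicate 1 left out and 0.23 with vehicle replicate 3 left out, and none of these passed. An unlisted gene on the other strand, Gm19719, overlaps the 1000 bases at the 3' end of Alox5ap, and the strand setting used in counting is not given in the sources used here.

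Ltc4s encodes leukotriene C4 synthase, which makes the parent of the cysteinyl leukotrienes (chromosome 11, 50236461 to 50238616, minus strand). It was the most abundant enzyme of the set, with 1025 UMIs over the 6 libraries and a mean of 526 CPM, the 328th highest of the 9088 listed genes. The vehicle libraries held 443, 473 and 395 CPM, against 544, 596 and 705 CPM for rIL-13. Every rIL-13 library was above every vehicle library, and the nearest values were those of vehicle replicate 2 and rIL-13 replicate 1. The log2 fold change was 0.49 ± 0.21 (SE, n = 3 per group), with an interval from 0.04 to 0.94. Its edgeR p was 0.0341 before and 0.854 after adjustment. For Ltc4s the authors' deposited table, from the same libraries, gives 0.49 with p = 0.0424 before and 0.9999 after adjustment. The same limit on strand holds for Ltc4s, whose 3' end is overlapped in the same way by the unlisted gene Gm26542.

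Lta4h, the gene of the hydrolase that makes leukotriene B4 (chromosome 10, 93453411 to 93484875, plus strand), was far lower than Ltc4s. UMIs counted at 3' ends are not divided by transcript length, so levels of different genes can be set side by side, apart from differences in how well each 3' end is captured. Lta4h stood at 56.1, 62.7 and 47.8 CPM for vehicle, against 66.1, 43.1 and 50.7 CPM for rIL-13. Its groups overlapped fully, and its log2 fold change was -0.06 ± 0.36 (SE, n = 3 per group; edgeR adjusted p = 0.993), with an interval from -0.82 to 0.70. Of the UMIs of both enzymes that use leukotriene A4, Ltc4s held 88.8% ± 0.452 for vehicle and 91.9% ± 2.38 for rIL-13 (SD, n = 3 each). The groups overlapped, with 89.2% both in vehicle replicate 3 (95% Wilson interval 84.2% to 92.8%) and in rIL-13 replicate 1 (83.5% to 93.0%). Intervals of shares cover counting error only.

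**Figure D1:**
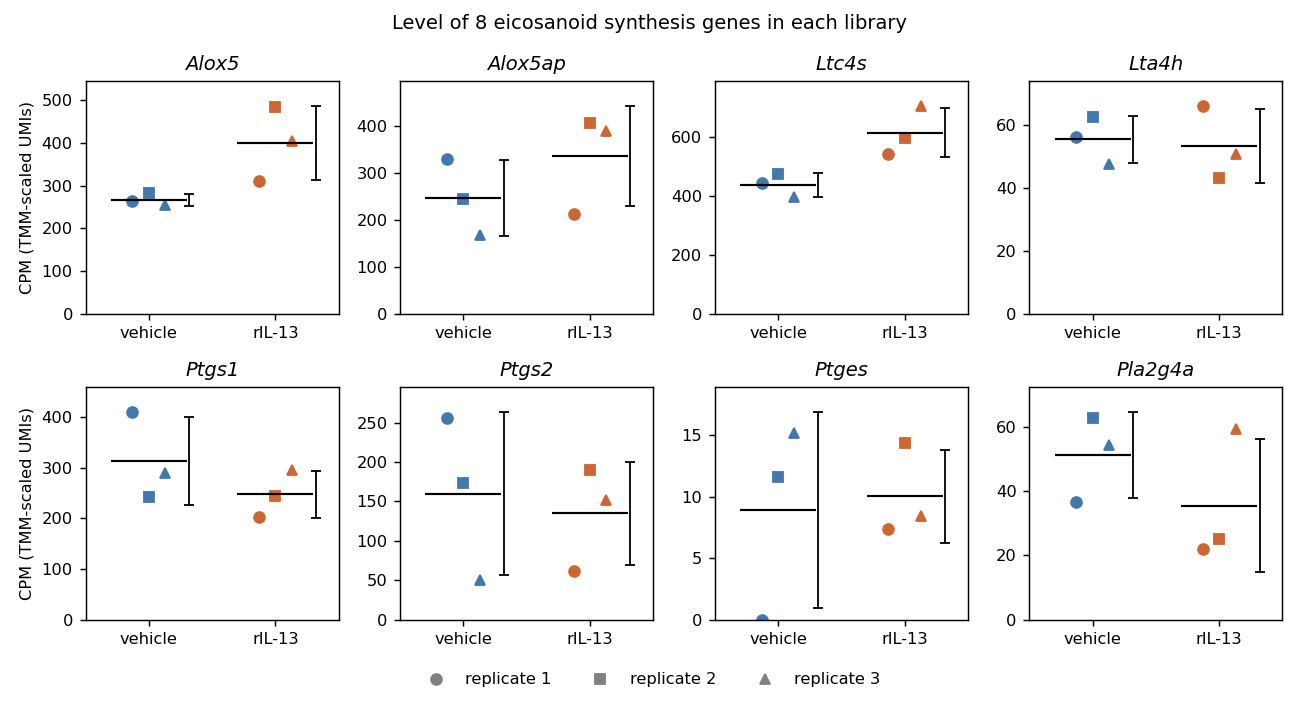
Level of each of the 8 listed enzyme genes in CPM, with 1 point per library, a line at the group mean and a bar of ± 1 SD (n = 3). For Alox5 and Ltc4s all rIL-13 points lie above all vehicle points, from 312 and 544 CPM upward, and for the other 6 genes the groups overlap.

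Ptgs1 encodes cyclooxygenase 1, the constitutive form and a common marker of tuft cells (chromosome 2, 36230426 to 36252272, plus strand). It stood at 410, 241 and 289 CPM in vehicle replicates 1, 2 and 3 and at 202, 244 and 296 CPM in the rIL-13 replicates. Vehicle replicate 1 was the highest library and rIL-13 replicate 1 the lowest, and the other 4 values were interleaved. The log2 fold change was -0.34 ± 0.25 (SE, n = 3 per group; edgeR adjusted p = 0.911), with an interval from -0.88 to 0.20. With vehicle replicate 1 left out the value was -0.11.

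Ptgs2 encodes cyclooxygenase 2, the inducible form (chromosome 1, 150100031 to 150108227, plus strand). It was the most variable of the tested enzymes among vehicle libraries. Its level was 255, 174 and 49.9 CPM in vehicle replicates 1, 2 and 3 and 62.4, 190 and 152 CPM in the rIL-13 replicates. The low values were those of vehicle replicate 3 and rIL-13 replicate 1, the pair of libraries that resembled each other most across all genes. Within the vehicle group the coefficient of variation was 64.8%, against 12.6% from counting. Within the rIL-13 group that of Ptgs2 was 48.6%, below the 58.1% of the sparse Pla2g4a. The log2 fold change was -0.23 ± 0.66 (SE, n = 3 per group; edgeR adjusted p = 0.983), and its interval from -1.82 to 1.37 allows a 2.58-fold higher level as well as one at 0.282 of vehicle. The sign turned when either vehicle replicate 1 (0.27) or rIL-13 replicate 1 (0.10) was left out. With both libraries of the similar pair left out, an alternative chosen after seeing the data, Ptgs2 was at -0.32, Alox5 at 0.70 and Ltc4s at 0.50, and none passed (edgeR adjusted p = 0.777, 0.321 and 0.505; over all alternatives 0.583 to 1.0, 0.196 to 1.0 and 0.356 to 1.0).

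Ptges, the gene of the microsomal prostaglandin E synthase that is often induced together with cyclooxygenase 2 (chromosome 2, 30889471 to 30929863, minus strand), was close to the limit of detection. Its UMI counts were 0, 5 and 7 for vehicle, against 2, 4 and 2 for rIL-13. The count of 0 in vehicle replicate 1 allows up to 3 UMIs, or 8.42 CPM, which lies inside the range of the other libraries. In the fit without a filter its log2 fold change was 0.11 ± 1.01 (SE, n = 3 per group; edgeR adjusted p = 0.999), with an interval from -1.96 to 2.18. As a fold, this interval allows from 0.257 to 4.52 times the vehicle level.

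By mean level over the 6 libraries the enzymes ran from Ltc4s at 526 CPM through Alox5 at 334, Alox5ap at 291, Ptgs1 at 280, Ptgs2 at 147, Lta4h at 54.4 and Pla2g4a at 43.3 to Ptges at 9.49 CPM. Alox5, Alox5ap and Ptgs1 are neighbours in this order whose ranges over the 6 libraries overlapped, and the same is true of Lta4h and Pla2g4a. Ltc4s was above every other enzyme, and Ptgs1 above Ptgs2, in all 6 libraries. With vehicle Ptgs1 ranked above Alox5 on average, at 313 ± 86.9 against 267 ± 14.8 CPM (SD, n = 3 each), a gap smaller than the spread of Ptgs1. With rIL-13 the order was Alox5 at 401 ± 86.3 and Ptgs1 at 247 ± 46.9 CPM, and Alox5 was the higher of the pair in each of the 3 libraries.

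The balance of both arms was read within each library, where it does not depend on how libraries are scaled to one another. Alox5, Alox5ap, Ltc4s and Lta4h together held 60.9%, 68.5% and 67.9% of the UMIs of the 8 enzymes in vehicle replicates 1, 2 and 3. In the rIL-13 replicates they held 79.4%, 76.3% and 75.1%. Every rIL-13 library was above every vehicle library, with means of 65.8% ± 4.23 and 76.9% ± 2.25 (SD, n = 3 each). The nearest libraries were vehicle replicate 2, with a 95% Wilson interval from 64.8% to 71.9%, and rIL-13 replicate 3, from 71.0% to 78.7%, and these intervals overlap. Both cyclooxygenases together held 37.1%, 26.8% and 26.6% of enzyme UMIs for vehicle, against 18.5%, 21.7% and 21.7% for rIL-13. The cyclooxygenase share is most of what the leukotriene share leaves of the same total, so it is not a separate result. The leukotriene sum holds Alox5 and Ltc4s, whose groups did not overlap in CPM. How often sums of other genes would not overlap was not computed. For single genes in CPM, groups did not overlap in 11.7% of all tested genes. No test is given for these summed shares, because the genes were chosen with results of these data known.

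Ptgs1 held 20.4% ± 4.17 of enzyme UMIs for vehicle, against 13.5% ± 1.18 for rIL-13, and Ptgs2 held 9.79% ± 5.30 against 7.08% ± 2.58 (SD, n = 3 each). The groups did not overlap for Ptgs1 on this scale, as for 9.78% of all tested genes divided by the same sum with rIL-13 below, and the sum holds Alox5 and Ltc4s. In CPM they overlapped. Of the UMIs of Ptgs1 and Ltc4s, a pair chosen after their values were seen, Ptgs1 held 48.0%, 33.8% and 42.2% for vehicle, against 27.1%, 29.1% and 29.5% for rIL-13. These groups did not overlap either, and relative to Ltc4s all rIL-13 libraries lay below for 28.1% of all tested genes. Ptgs2 held 31.7% ± 14.8 of cyclooxygenase UMIs for vehicle, against 33.8% ± 10.1 for rIL-13 (SD, n = 3 each), a difference far inside the spread, with the lowest shares again in vehicle replicate 3 (14.7%) and rIL-13 replicate 1 (23.6%). Within the leukotriene arm, Alox5 held 38.0% ± 1.02 and 39.3% ± 4.83 of the UMIs of Alox5 and Ltc4s, a difference inside the spread.

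**Figure D2:**
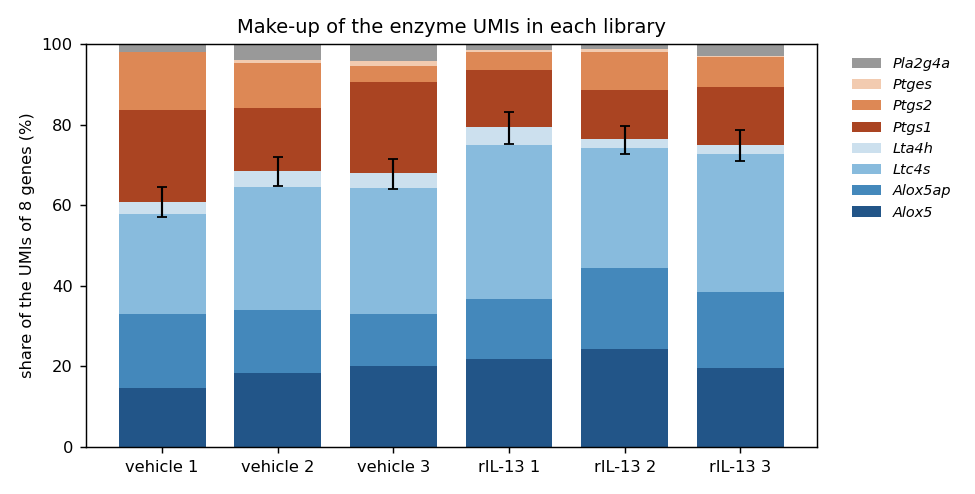
Share of each gene among the UMIs of the 8 enzyme genes, in percent, for each library, with leukotriene genes in blue, cyclooxygenases and Ptges in orange and Pla2g4a in gray; the bar at the top of the blue part is the 95% Wilson interval of the leukotriene share. The blue part ends between 60.9% and 68.5% for vehicle and between 75.1% and 79.4% for rIL-13.

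Summed over all 8 genes, the enzymes held 0.162%, 0.146% and 0.120% of listed UMIs in the vehicle replicates and 0.132%, 0.194% and 0.197% in the rIL-13 replicates. The group means of 0.143% ± 0.0214 and 0.174% ± 0.0371 (SD, n = 3 each) differed by less than the spread of the rIL-13 libraries. rIL-13 replicate 1 lay inside the vehicle range.

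Most other tuft markers were also higher on average with rIL-13. Of 28 tested tuft markers outside the enzyme set, 25 had a positive log2 fold change, the median was 0.66 and 1 passed, the phosphatase gene Ptpn18. All rIL-13 libraries lay above all vehicle libraries for 11 of the 28, against 5.76% of all tested genes, and the part of tuft cell content in the levels of Alox5 and Ltc4s was not tested. Over all tested genes 2565 of 5135 were positive. Per 1000 UMIs of the 39 listed tuft markers, Alox5 had 27.3 ± 2.47 for vehicle and 29.9 ± 5.26 for rIL-13, and Ltc4s had 44.8 ± 5.45 and 46.6 ± 10.7 (SD, n = 3 each). Alox5ap had 25.7 ± 10.7 and 24.2 ± 2.13. Ptgs1 had 46.9, 22.3 and 29.2 in the vehicle replicates and 21.9, 16.1 and 17.4 in the rIL-13 replicates, without overlap. Pla2g4a, at 4.17, 5.78 and 5.50 for vehicle, against 2.39, 1.65 and 3.49 for rIL-13, did not overlap either. On this scale all rIL-13 libraries lay below for 14.6% of all tested genes, against 5.94% in CPM, where both genes overlapped, and the nearest Ptgs1 values differed by little.

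With the summed tuft markers as library size in edgeR, the median of all tested genes moved to -0.42 on the log2 scale, and fold changes are read against that shift. Alox5 then stood at 0.13 ± 0.36 and Ltc4s at 0.05 ± 0.36 (SE, n = 3 per group; edgeR adjusted p = 0.870 and 0.952). Ptgs1 stood at -0.83 ± 0.39 and Pla2g4a at -1.04 ± 0.46, and neither passed (edgeR adjusted p = 0.571 for both). Relative to the median of all genes, Alox5 and Ltc4s were at 0.55 and 0.47, and Ptgs1 and Pla2g4a at -0.41 and -0.62. Taking off that median largely undoes the scaling, so these values come near those of the main fit by construction. On the tuft scale the median of the 28 tested tuft markers was 0.18, above Alox5 and Ltc4s. Over all alternatives adjusted p ran from 0.196 to 1.0 for Alox5, from 0.356 to 1.0 for Ltc4s and from 0.571 to 1.0 for Ptgs1 and Pla2g4a. Scaled in this way, the 95% interval ran from -0.62 to 0.87 for Alox5 and from -0.70 to 0.81 for Ltc4s, so a difference in either direction relative to the tuft markers is allowed.

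Several enzymes of the set are also known from other cell types, and markers of these were read in the same libraries. None of 10 mast cell and basophil markers, 12 eosinophil and neutrophil markers or 5 platelet markers was among the listed genes. Of 14 macrophage and dendritic markers 3 were listed, Csf1r, Cd68 and Mrc1. Summed, they reached 225, 195 and 58.6 CPM in the vehicle replicates and 25.7, 147 and 29.6 CPM in the rIL-13 replicates, with Cd68 at 0 in 1 library and Mrc1 at 0 in 2. Their part in the levels of Alox5, Alox5ap and Ltc4s was not tested. Of 12 fibroblast markers 10 were listed, and they summed to 1996 to 2985 CPM with vehicle and 1246 to 3284 CPM with rIL-13. Of 6 endothelial markers 2 were listed, Kdr and Tek. Summed, they reached 115, 142 and 32.6 CPM in the vehicle replicates and 55.1, 86.2 and 88.7 CPM in the rIL-13 replicates. The part of endothelial cells in the levels of Ptgs2, Ptgis and Slco2a1 was not tested.

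Mesothelial markers also varied between libraries, and not all alike. All 6 were listed and summed to 2742, 2838 and 1417 CPM in vehicle replicates 1, 2 and 3 and to 1440, 2413 and 2416 CPM in the rIL-13 replicates. Without Krt19, a keratin shared with other epithelia and left out after its values were seen, the sums were 1648, 1176 and 349 CPM and 404, 632 and 444 CPM. Lrrn4, the most abundant of those 5, stood at 845, 462 and 171 CPM for vehicle, against 162, 424 and 287 CPM for rIL-13, and like Ptgs2 it was highest in replicate 1 of the vehicle group and replicate 2 of the treated group. Wt1 followed the order of Ptgs2 within each group, at 53.3, 48.7 and 19.5 CPM against 22.0, 43.1 and 33.8 CPM. Msln and Upk3b were in another order among treated libraries, at 129, 86.2 and 63.4 CPM and at 77.1, 71.8 and 33.8 CPM, with their lowest values in rIL-13 replicate 3, where Ptgs2 was at 152 CPM. The sparse Gpm6a differed too, at 14.7, 7.18 and 25.3 CPM in the treated libraries. Ptgis, the gene of prostacyclin synthase, which works downstream of the cyclooxygenases, was at 1569, 921 and 501 CPM for vehicle, against 547, 973 and 545 CPM for rIL-13. Slco2a1, a prostaglandin transporter, was at 154, 92.8 and 19.5 and at 44.1, 46.7 and 42.2 CPM. Both were highest in vehicle replicate 1, and both were as low in rIL-13 replicate 3 as in rIL-13 replicate 1, unlike Ptgs2. The part of mesothelial cells in the level of Ptgs2 was not tested.

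**Figure D3:**
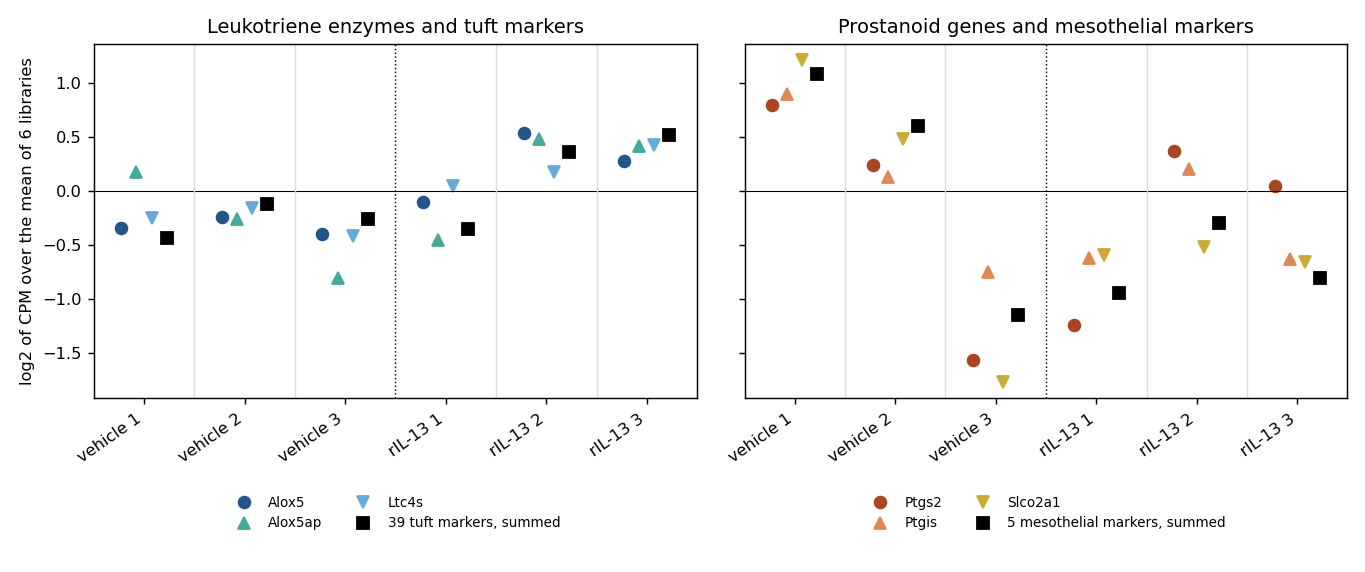
Level in each library as the log2 of CPM over the mean of the 6 libraries, for leukotriene genes with the summed tuft markers (left) and for Ptgs2, Ptgis and Slco2a1 with 5 summed mesothelial markers (right). Alox5 and Ltc4s are lower in the vehicle libraries, and the genes on the right are highest in vehicle replicate 1. In rIL-13 replicate 3, Ptgs2 is near its mean over libraries while Ptgis and Slco2a1 are below theirs.

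The rest of the pathway was read from a list of 82 further gene symbols, which holds Plaat3 and Prxl2b also under older names (Pla2g16 and Fam213b). Of the 82, 37 were listed and 22 tested. None passed, 11 were positive and 11 negative, and the median log2 fold change was -0.02. None of the 15 receptor genes for leukotrienes and prostanoids was among the listed genes. Of 6 other lipoxygenases 2 were listed and none was tested.

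Among 5 tested terminal synthases other than the enzymes above, Ptges2, which encodes a second microsomal prostaglandin E synthase, was lower in all rIL-13 libraries. Its UMI counts of 37, 27 and 29 for vehicle, against 8, 3 and 14 for rIL-13, came to 104, 62.7 and 62.9 CPM against 29.4, 10.8 and 59.1 CPM, so rIL-13 replicate 3 came close to the vehicle range. It stood at -1.22 ± 0.47 and missed the threshold (log2 fold change ± SE, n = 3 per group; edgeR adjusted p = 0.804, unadjusted p = 0.0171). It was -1.90 with rIL-13 replicate 3 left out and -0.80 with rIL-13 replicate 2 left out, and neither passed. All rIL-13 libraries lay below for 5.94% of all tested genes. Ptgis was the most abundant of the synthases at 843 CPM on average, above every enzyme of the set, with a log2 fold change of -0.53 ± 0.43 that was -0.05 with vehicle replicate 1 left out. Cbr1, a carbonyl reductase that can act on prostaglandin E2, had a level of 242 CPM on average and a log2 fold change of 0.25 ± 0.25.

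Among the 5 tested genes of inactivation and transport, Cyp4f13, a cytochrome P450 of a family that oxidises leukotriene B4, was higher in all rIL-13 libraries, with 3, 5 and 11 UMIs against 10, 9 and 13. In CPM these were 8.42, 11.6 and 23.9 against 36.7, 32.3 and 54.9. All rIL-13 libraries lay above for 1 of the 22 tested genes of the wider list and for 5.76% of all tested genes. Cyp4f13 was named for its small p. It stood at 1.42 ± 0.55 and missed the threshold (log2 fold change ± SE, n = 3 per group; edgeR adjusted p = 0.804). Slco2a1 was at -0.97 ± 0.63 (edgeR adjusted p = 0.898), and at -0.33 with vehicle replicate 1 left out and -1.47 with vehicle replicate 3 left out, neither of which passed.

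The 2 tested microsomal glutathione transferases, relatives of leukotriene C4 synthase, were Mgst3 at 0.48 ± 0.36 and Mgst1 at -0.12 ± 0.41 (log2 fold change ± SE). The 2 other tested phospholipases, Pla2g6 and Pla2g12a, were at 0.48 ± 0.46 and 0.01 ± 0.33. Of 4 tested genes that supply or re-esterify arachidonic acid, Lpcat3 and Mboat7, both lysophospholipid acyltransferases, were at -0.37 ± 0.36 and -0.18 ± 0.28. Mgll, the monoacylglycerol lipase gene, had a level of 316 CPM on average and a log2 fold change of -0.06 ± 0.23. Of 4 tested regulators, Anxa1, which encodes the phospholipase inhibitor annexin A1, was abundant at 872 CPM and nearly equal in the groups, at 859 ± 132 CPM for vehicle and 885 ± 67.2 CPM for rIL-13 (SD, n = 3 each). Mapkapk2, a kinase upstream of 5-lipoxygenase phosphorylation, and S100a10, the partner of annexin A2, were at 0.24 ± 0.27 and -0.40 ± 0.35 on the log2 fold change scale.

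**Figure D4:**
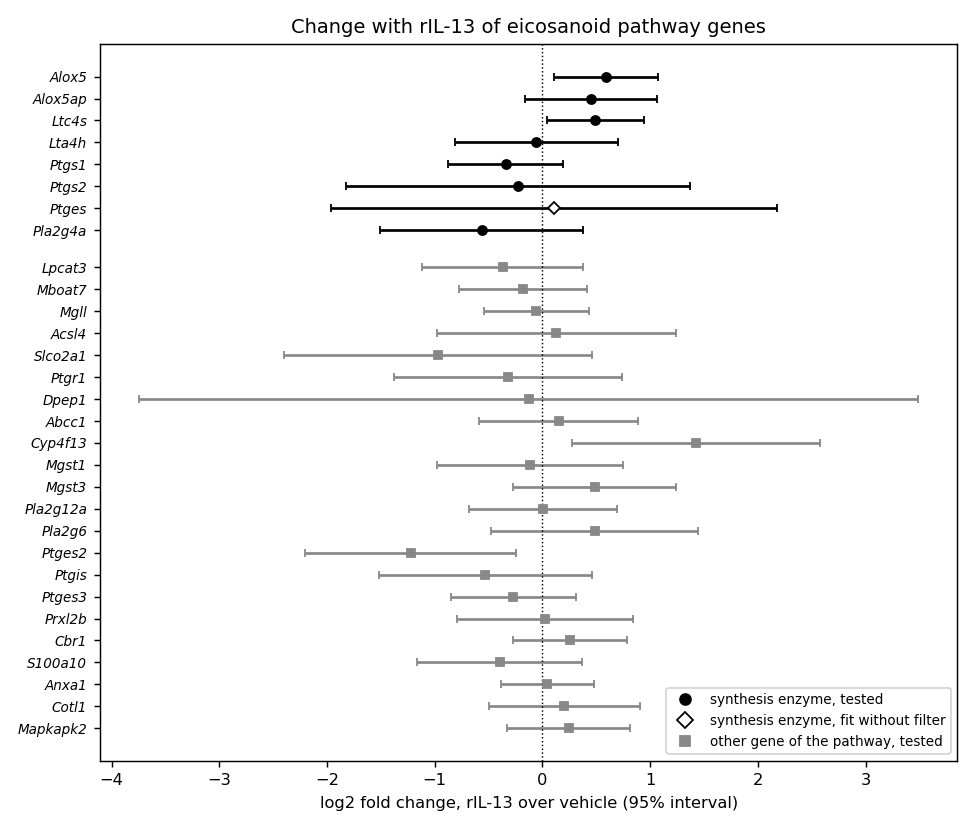
Log2 fold change (rIL-13 over vehicle, edgeR) with its 95% interval for the 8 listed enzyme genes (black; the open diamond is Ptges from the fit without a filter) and for the 22 tested other genes of the pathway (gray squares). The intervals of Alox5, Ltc4s, Ptges2 and Cyp4f13 lie to one side of 0 before adjustment, and no gene passed after it.

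The direction of the leading differences was set against other tools, scalings, filters and subsets of libraries. Alox5 ran from 0.13 to 0.72 and Ltc4s from 0.05 to 0.58 over 19 alternatives, always positive, and the lowest value of each was the one scaled to tuft markers. Ptgs1 ran from -0.83 to -0.11 and Pla2g4a from -1.11 to -0.29, always negative. Alox5ap, Lta4h, Ptgs2 and Ptges took both signs. No enzyme passed the adjusted threshold under any of them. The alternative at an adjusted p under 0.1 changed only the threshold, so its fold changes equal the reported ones.

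**Figure D5:**
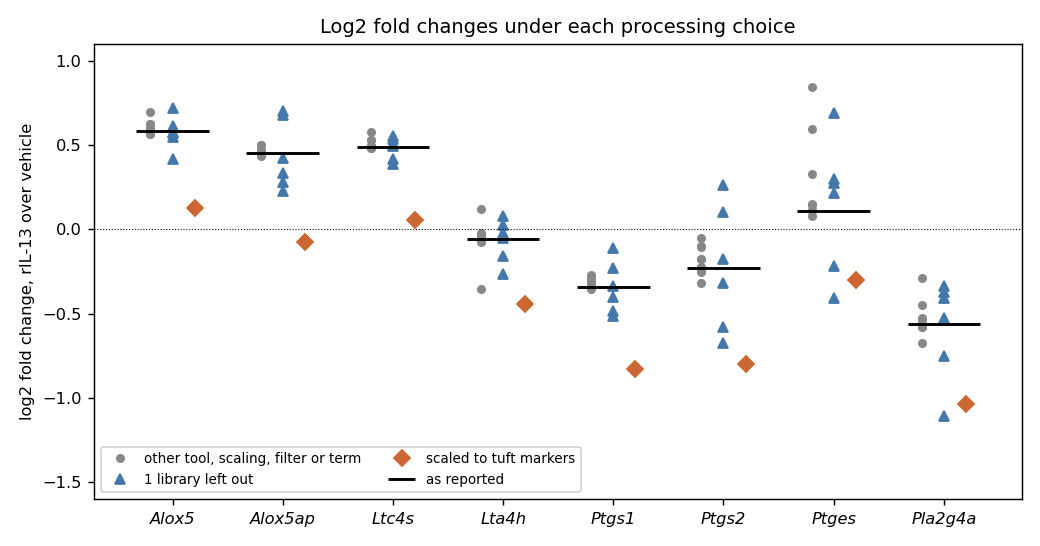
Log2 fold change of each enzyme gene under every processing alternative, with a line at the reported value. Values scaled to tuft markers (diamonds) lie lowest for Alox5, at 0.13, and Ltc4s, at 0.05, and the spread with 1 library left out (triangles) is widest for Ptges and Ptgs2.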

How the data were processed

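Bulk 3' MARS-seq libraries of sorted thymic tuft cells, 3 with rIL-13 and 3 with vehicle, were grouped and numbered from the sample titles. The submitters' processing notes list STAR 2.5.2b, HTSeq, cutadapt, bcl2fastq and DESeq2, and build mm10, without saying what each did. Per the file headers, the deposited table gives UMI counts (raw), a size-factor normalized signal, log2 values from a regularized transformation, and the authors' log2 fold changes with p-values. Counts were used for every test, the authors' comparison is quoted as theirs with its sign turned to rIL-13 over vehicle, and their normalized signal and log2 values were not used. A listed gene reaches 6 UMIs or more in at least 1 library. Totals therefore cover listed genes and are not whole library depths.

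Differences were tested in edgeR 4.0.16 under R 4.3.3 (quasi-likelihood F test, robust, TMM factors, its default low-count filter, group as the only term). The filter kept 5135 of 9088 genes with 93.8% of UMIs, with a biological coefficient of variation of 24.9%. The 2-sided threshold was an adjusted p (Benjamini-Hochberg over all tested genes) under 0.05. SE are those implied by the F statistic, and 95% intervals use its degrees of freedom. Values for Ptges come from a fit that kept every gene with a UMI. Shares have 95% Wilson intervals. Alternatives were DESeq2 1.42.0, limma 3.58.1 (voom), other scalings, filters and thresholds, a replicate term, thinning to the smallest total and leaving out libraries. Coordinates are from GENCODE M21. The enzyme genes, lists and tests were chosen with earlier results of these data known. Genes named from the wider list were the 2 tested genes with the smallest p per role and those with a level above the median enzyme (214 CPM). Figures were drawn with matplotlib 3.10.9.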

Additional observations from a re-analysis of the deposited data

How the results depend on the processing

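In 148 values of the 8 enzymes under alternatives, sign and side of the threshold were kept in 139, and the other 9 turned sign with none passing. The alternative at adjusted p under 0.1 changed only the threshold, so its fold changes could not turn sign. Scaling to tuft markers turned Alox5ap (-0.075), Ptges (-0.30), Anxa1 (-0.34), Cbr1 (-0.23), Mapkapk2 (-0.047) and Pla2g12a (-0.45), thinning to the smallest total turned Lta4h (0.12), Mgll (0.0196) and Pla2g12a (-0.0531), limma voom turned Mgst1 (0.0525), and no filter (-0.0057) and upper quartile factors (-0.0079) turned Pla2g12a. Dropping the similar pair (vehicle replicate 3, rIL-13 replicate 1), an alternative chosen after seeing the data, turned Anxa1 (-0.15), Mapkapk2 (-0.18) and Mgll (0.0576). Leaving out 1 library in turn gave -0.26 to 0.0788 for Lta4h, -0.67 to 0.27 for Ptgs2, -0.41 to 0.69 for Ptges, -0.0811 to 0.12 for Anxa1, -0.17 to 0.46 for Mapkapk2, -0.19 to 0.0892 for Mgll, -0.49 to 0.29 for Mgst1 and -0.17 to 0.21 for Pla2g12a. Over all tested genes, 2 higher and 1 lower became 5 and 2 with no filter, 1 and 0 with tuft scaling, 8 and 5 with the replicate block, 4 and 2 with DESeq2, 0 and 0 with limma voom and 21 and 10 without that pair, 2 were lower at adjusted p under 0.1 and after thinning, and leaving out 1 library gave 1 to 20 higher and 0 to 15 lower. Among these, leaving out rIL-13 replicate 1 gave 20 and 9 and leaving out vehicle replicate 3 gave 8 and 15. With the replicate block Alox5 was at 0.57 and Ltc4s at 0.49, and neither passed. Deviations from group means correlated at -0.0676, 0.0733 and -0.223 between same-numbered libraries, and from -0.208 to 0.253 between the others. These values cannot show whether a shared number marks a shared animal or day, so pairing is undetermined. Without ribosomal protein genes the enzymes held 0.164% of UMIs with vehicle. The cause of the changes under these alternatives was not tested. Depth limits Ptges, Pla2g4a and Lta4h most.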

Other observations

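Among the 15 listed genes of the wider pathway that fell under the count filter, the highest log2 fold changes in the fit without a filter, chosen after their values were seen, were those of Alox12e, an epidermal lipoxygenase gene, Dagla, a diacylglycerol lipase gene, and Plaat3, a phospholipase A and acyltransferase gene. In UMIs, Alox12e was at 0, 0 and 3 for vehicle, against 2, 1 and 10 for rIL-13, and Dagla was at 0, 1 and 6 against 1, 13 and 4. Plaat3 was at 1, 4 and 1 against 1, 5 and 7. In each of them 1 or 2 libraries held most UMIs, the groups overlapped, and none passed (edgeR adjusted p = 0.896 for each).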
